A study of Mus musculus with 6 samples.

Results

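The genes described here encode SR proteins, hnRNP proteins and 12 further regulators of alternative splicing in mouse embryonic stem cells. They were chosen by symbol, as the rows named Srsf with a number or starting with Hnrnp, together with Esrp2, Rbfox2, Mbnl1, Mbnl2, Mbnl3, Ptbp1, Ptbp2, Ptbp3, Celf1, Qk, Tra2a and Tra2b, and had to reach 1 FPKM in at least 3 of 6 libraries. Of 43 such rows in a table of 24083 genes, 42 met the limit: 11 SR proteins, 20 hnRNP proteins and 11 other regulators. Mbnl1 did not meet it, with 0.147, 0.160 and 0.336 FPKM in WT and 0.306, 0.524 and 0.128 FPKM in R153A. The members just inside were Srsf12, which reached 1 FPKM in 3 libraries, all of them R153A, and Mbnl3, which reached it in 4.

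The study sequenced polyadenylated RNA of mouse embryonic stem cells in 2 groups of 3 libraries. One group had the wild-type genotype (WT), and the other had the R153A form of NANOG, a homeodomain transcription factor of pluripotent cells. All cells were kept without further treatment on gelatin in medium with 15% serum and LIF, a cytokine that sustains self-renewal, at 1000 units per mL. The sources used here do not say how the R153A allele was made or if each library is its own culture or clone. The p-values therefore measure the spread between these libraries, which may be technical. Expression is in FPKM, mapped fragments scaled to gene length and library size. Fold changes are differences of log2(FPKM + 1), R153A minus WT, a scale that understates changes of genes near 1 FPKM. The fit over all 11817 genes tested used limma, a linear model with moderated variances, and an adjusted p under 0.05 made a call.

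SR proteins carry RNA-recognition motifs and a domain rich in arginine-serine dipeptides. They bind exonic enhancers and help the U1 and U2 snRNPs settle on nearby splice sites. The hnRNP proteins coat nascent transcripts and often act against them, by hiding splice sites or looping out exons. PTBP, MBNL, RBFOX, CELF and ESRP proteins set tissue-specific exon choices around this common background, and in pluripotent cells MBNL proteins are known to work against the stem-cell pattern of splicing. Many SR and hnRNP genes also carry poison exons, whose inclusion sends their own mRNA to nonsense-mediated decay. An FPKM value per gene does not separate such isoforms, and no splicing event was measured here.

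Across the whole table the libraries differed widely between groups. The summed FPKM lay between 360152 and 382086 per library, and depth was unknown because the table has no counts. Nanog mRNA stood at 241, 259 and 258 FPKM in WT, against 119, 122 and 129 FPKM in R153A, a level that shows the groups to differ but does not read the substitution itself. All 12 embryonic stem cell markers on the list were tested, and 9 fell and 1 rose in R153A. Across all genes tested, 22.3% fell and 37.5% rose, shares that stand beside the calls of each marker list here. Their summed FPKM was 4436 to 5201 in WT and 2414 to 2518 in R153A. The 12 neural and muscle markers summed to 49.2 to 57.9 FPKM in WT and 24.6 to 25.7 in R153A, with 8 under 1 FPKM in every library and 4 listed at 0 in at least 1 library. Most of that sum was Tubb3 (means of 48.3 and 15.3 FPKM), and of the 4 tested Tubb3 and Map2 fell while Syp and Des rose. Des stayed under 1 FPKM in every WT library, and Syp did so in WT libraries 2 and 3. Both met the limit through R153A, so their calls are no separate support. The 12 primitive endoderm markers summed to 64.4 to 72.2 and 91.3 to 96.3 FPKM, with 6 under 1 FPKM throughout and 3 listed at 0 somewhere. Most of that sum was Sparc (means of 58.4 and 79.5 FPKM), and of the 6 tested Sparc, Col4a1 and Foxa2 rose, Sox7 and Lama1 fell and Gata4 was not called. Foxa2 stayed under 1 FPKM in every WT library, and Sox7 and Lama1 in every R153A library. These genes met the limit only through the group where they were higher, so their calls are no separate support. For the 12 fibroblast and feeder markers the sums were 8.57 to 10.7 and 12.9 to 13.5 FPKM, with 7 under 1 FPKM throughout and 1 listed at 0 somewhere. The part of these marker changes in the results below was not tested. In bulk RNA, fewer cells of a type and less RNA per cell cannot be told apart.

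Most splicing factors differed by little between R153A and WT, and more were called higher than lower, by a margin that depended on the scaling. In the fit over all genes, 19 of the 42 rose, 4 fell and 19 were not called, that is 54.8% called, where 59.8% of all genes tested were called. The share that rose was 45.2%, against 37.5% of all genes, and the share that fell was 9.52%, against 22.3%. The 3 R153A values lay wholly above the 3 WT values in 20 members and wholly below in 4, while 65.0% of all genes tested had groups that did not overlap in one direction or the other. Their median log2 fold change was 0.12, where that of all genes tested was 0.071, and their median absolute change was 0.14, where that of all genes was 0.24. The members were also more abundant, with a median of 63.8 FPKM in WT against 8.26 for all genes tested, and no test compared them with other genes. On the log2(FPKM + 1) scale no member reached a change of 1 in size, where 981 of the 11817 genes tested did. In mean FPKM, Srsf12 rose 2.79-fold. A change of 0.5 or more in size was seen in 4 members and in 2880 of all genes tested. The 4 members include Srsf12 and Mbnl3, which met the limit of 1 FPKM through R153A. Their calls, also counted among the 19 that rose, are therefore no separate support. A change of under 0.25 was seen in 30 members (71.4%) and in 51.2% of all genes tested. With 3 libraries against 3, an exact two-sided permutation test of any single gene could not go below p = 0.1.

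**Figure D1:**
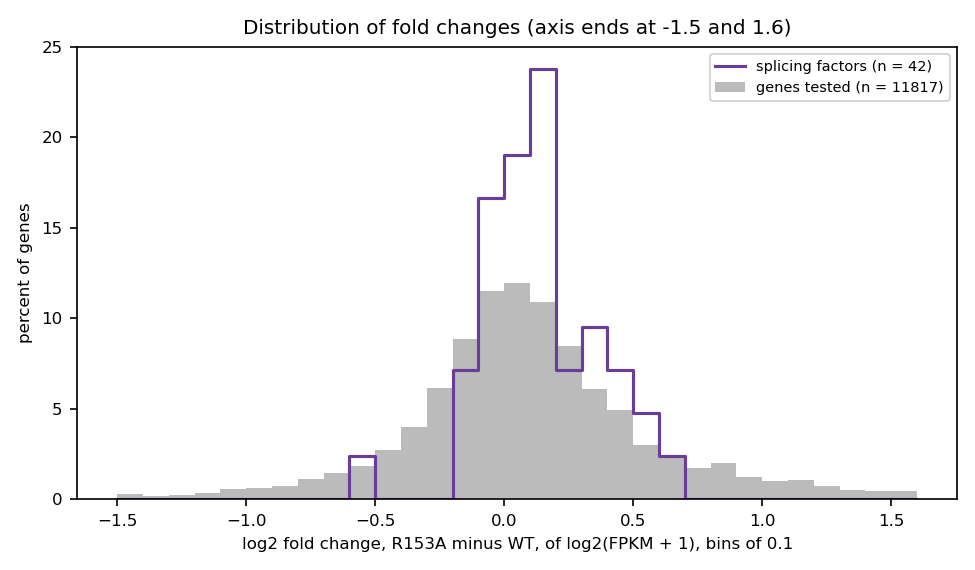
Percent of genes (vertical axis) in each bin of log2 fold change, R153A minus WT, of log2(FPKM + 1) (horizontal axis), for all 11817 genes tested (grey bars) and the 42 splicing factors (line). The line is narrower than the bars, with 71.4% of members and 51.2% of all genes within 0.25 of zero.

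The split of the calls depended on how the libraries were scaled. Median-ratio scaling left 13 members higher and 6 lower, where 31.9% of all genes were then higher and 30.9% lower. A correction of each library for GC content and transcript length, added after the data were seen, left 13 higher and 9 lower, with 28.5% of all genes higher and 36.6% lower. It moved the median change of all genes by -0.12. Quantile normalization left 18 members higher and 4 lower, with 29.7% of all genes higher and 32.9% lower. Of all genes called, 62.7% were higher in the deposited values, 50.7% under median-ratio scaling, 47.5% under quantile normalization and 43.8% after the correction. The transcripts of the members had a median GC content of 43.9%, and those of all genes tested 50.1%. Calls in the same direction in every alternative that tested them were made for 14 of the 23 called members: Srsf2, Srsf6, Srsf12, Hnrnpa0, Hnrnpa2b1, Hnrnph1, Hnrnpll, Hnrnpm, Esrp2, Mbnl2, Mbnl3, Ptbp2, Ptbp3 and Tra2a. For Srsf12 and Mbnl3, which met the limit through R153A, this constancy is no separate support.

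**Figure D2:**
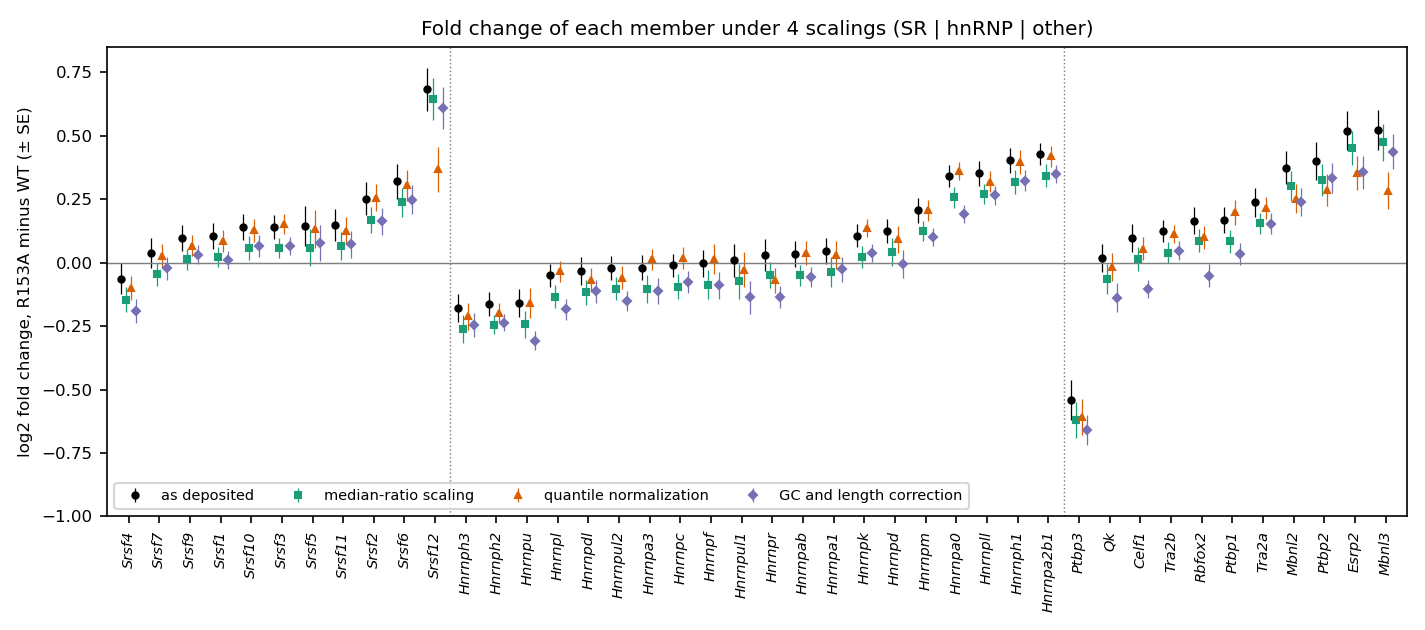
Log2 fold change, R153A minus WT, with its SE (vertical axis), for each of the 42 members (horizontal axis, SR proteins, hnRNP proteins and other regulators from left to right) in the deposited values and under 3 rescalings. Ptbp3 lies below zero and Hnrnpa2b1, Hnrnph1, Hnrnpll and Hnrnpa0 above it in all 4. All 42 members, near zero or far from it, shift downward under median-ratio scaling and the GC and length correction.

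Sequences upstream of 4 of these genes are shown as examples, and their part in the changes was not tested. Srsf6 and Hnrnpa2b1 rose, and the near-identical hnRNP H proteins are encoded by Hnrnph1, which rose, and Hnrnph2, which fell. Each line gives the 150 bases before a transcription start in the strand of the gene, from RefSeq on GRCm38.p6. The deposited values were made on mm9, so these coordinates belong to the RefSeq table only. Capitals mark CCAAT or its reverse complement ATTGG, the box bound by NF-Y. The windows of Hnrnpa2b1 and Hnrnph1 are the first listed for these genes and do not lie at the annotated gene start. Hnrnph1 does have the CCAAT box in the 250 bases before a start, outside the stretch printed. The lines for Hnrnph1 and Hnrnph2 therefore do not compare their promoters in full.
Srsf6 (chr2:162931358-162931507, plus strand): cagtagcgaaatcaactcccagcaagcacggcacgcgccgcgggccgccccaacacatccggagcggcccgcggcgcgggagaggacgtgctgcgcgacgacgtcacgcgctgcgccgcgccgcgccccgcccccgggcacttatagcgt
Hnrnpa2b1 (chr6:51469895-51470044, minus strand, 1 of 2 starts): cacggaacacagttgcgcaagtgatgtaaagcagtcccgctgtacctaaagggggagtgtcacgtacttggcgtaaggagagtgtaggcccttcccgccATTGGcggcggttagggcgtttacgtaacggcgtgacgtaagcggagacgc
Hnrnph1 (chr11:50376840-50376989, plus strand, 1 of 5 starts): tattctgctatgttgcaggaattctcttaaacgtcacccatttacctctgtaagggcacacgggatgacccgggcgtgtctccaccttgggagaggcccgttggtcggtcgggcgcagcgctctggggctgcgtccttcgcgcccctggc
Hnrnph2 (chrX:134601029-134601178, plus strand): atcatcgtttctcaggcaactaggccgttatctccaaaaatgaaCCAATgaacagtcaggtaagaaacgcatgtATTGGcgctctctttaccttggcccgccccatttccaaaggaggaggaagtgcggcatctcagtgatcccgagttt
The windows are rich in CpG, with 28 in Srsf6, 15 in Hnrnpa2b1, 12 in Hnrnph1 and 7 in Hnrnph2.

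Promoters were found for 37 of the 42 members, with 49 starts between them. In the 250 bases before the start, the members' windows had a median of 23 CpG dinucleotides. All 32851 windows of the table, not limited to the genes tested, had a median of 6. The median GC content of the members' windows was 68%, against 52.4%. Its part in the motif shares that follow was not tested, nor was that of expression. CCAAT, read on both strands, was in 23 of the 49 windows (46.9%), from 19 members, and in 33.8% of all windows of that length. CCGGAAG, an ETS-type core, was in 9 (18.4%), from only 6 members, against 6.91%. The E-box CACGTG, the type bound by MYC, was in 4 (8.16%), against 6.02%. TATAAA was in 3 (6.12%), those of Hnrnpm, Srsf2 and Srsf3, against 12.4%, and the NRF1-type palindrome in 1 (2.04%), against 0.782%. TAATGG, a homeodomain-type core, was in 0 of the 49, and in 6.57% of all windows. These matches describe the letters of the windows and do not show that a factor binds. CCAAT stood in 9 of the 16 members that rose, in 1 of the 3 that fell and in 9 of the 18 that were not called, counting those with a promoter in the table. No motif searched contains another, and a window counted once for each motif.

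Among SR proteins, 5 of 11 rose, none fell and 6 were not called, where 59.8% of all genes were called in either direction. Those that rose were Srsf2, Srsf3, Srsf6, Srsf10 and Srsf12, and 10 of the 11 had a log2 fold change above zero. The family's median change was 0.14. It was 0.058 under median-ratio scaling and 0.066 after the GC and length correction, where 3 members were called higher and 1, Srsf4, lower.

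Srsf12, a minor SR protein that acts against splicing in some settings, had the lowest level of all 42 members. It stood at 0.452, 0.549 and 0.543 FPKM in WT, against 1.27, 1.603 and 1.43 FPKM in R153A. Every R153A library lay above every WT library, and the mean was 2.79-fold higher. Its change of 0.68 (SE 0.0852, limma adjusted p = 3.9e-05) was the largest of the members. Srsf12 missed the limit of 1 FPKM throughout WT and entered only through R153A, so it had to differ, and its call is no separate support.

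Srsf6, known for its part in tau exon choice, was at 49.1, 53.4 and 52.2 FPKM in WT, against 68.0, 57.5 and 69.0 FPKM in R153A. The groups did not overlap, although R153A library 2 lay closer to WT than the others did. The change was 0.32 (SE 0.0696, limma adjusted p = 0.0021). Srsf2, known as SC35 and the namesake marker of nuclear speckles, was the most abundant SR mRNA. It stood at 169, 195 and 189 FPKM in WT, against 228, 203 and 227 FPKM in R153A, with R153A library 2 again nearest to WT. Its change was 0.25 (SE 0.0655, limma adjusted p = 0.0065).

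Srsf3, a small SR protein that also takes part in mRNA export, was at 124, 135 and 127 FPKM in WT, against 144, 140.0 and 143 FPKM in R153A. The groups lay close but did not overlap, with a change of 0.14 (SE 0.0477, limma adjusted p = 0.024). Srsf10, an SR protein that represses splicing when dephosphorylated, was at 55.2, 56.0 and 53.5 FPKM in WT, against 57.5, 60.9 and 63.5 FPKM in R153A, with a change of 0.14 (SE 0.0505, limma adjusted p = 0.034). Both calls were lost under median-ratio scaling (limma adjusted p = 0.217 and 0.32) and after the GC and length correction (0.126 and 0.193). The same held on rescaling to TPM (limma adjusted p = 0.0501 and 0.0731) and for both calls in a fit that did not let variance follow the mean (0.062 and 0.0726). The calls were also lost without single libraries. For Srsf3 these were WT replicate 1 (limma adjusted p = 0.0852), R153A replicate 1 (0.0863) and R153A replicate 3 (0.0769). For Srsf10 they were WT replicate 1 (limma adjusted p = 0.0621), WT replicate 3 (0.0809), R153A replicate 2 (0.087) and R153A replicate 3 (0.155).

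The 6 SR proteins that were not called included some of the most abundant. Srsf5, first described as an insulin-induced gene, was at 119, 121 and 139 FPKM in WT, against 146, 124 and 149 FPKM in R153A. The groups overlapped through WT library 3 and R153A library 2. Without WT replicate 3 its change was 0.21 (limma adjusted p = 0.0202), and without R153A replicate 2 it was 0.22 (0.0236). Srsf11 was at 52.9, 53.6 and 56.3 FPKM in WT, against 61.5, 54.7 and 65.0 FPKM in R153A (limma adjusted p = 0.064). It too was called without WT replicate 3 (limma adjusted p = 0.0448) and without R153A replicate 2 (0.0094). Srsf1, the founding member of the family and a known oncoprotein, was at 80.2, 87.1 and 83.2 FPKM in WT, against 90.8, 85.1 and 93.8 FPKM in R153A, with groups that overlapped and a change of 0.11 (SE 0.0528). Srsf9 and Srsf7 had changes of 0.096 and 0.038. Srsf4 was the only SR gene whose mean was lower in R153A, 36.9 ± 2.24 (SD, n = 3) against 38.6 ± 2.23 FPKM, with overlapping groups.

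Most SR genes had their lowest value of each group in the same library. WT library 1 had the lowest WT value in 10 of the 11, and R153A library 2 the lowest R153A value in 9 of the 11. Among all genes tested, WT library 1 was lowest in 50.3% and R153A library 2 in 50.7%. R153A library 3 was lowest in none of the 11, and in 19.1% of all genes. The summed FPKM of the 11 SR genes was 857, 924 and 931 in WT and 1028, 941 and 1046 in R153A. R153A library 2 thus lay only just above WT library 3, and the group means differed 1.11-fold. As shares of each library's summed FPKM the means differed 1.09-fold, with 0.2509% in R153A library 2 and 0.2502% in WT library 2. With WT replicate 1 left out 3 SR genes were called, as with R153A replicate 3 left out, and 6 with either R153A replicate 2 or WT replicate 3 left out.

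**Figure D3:**
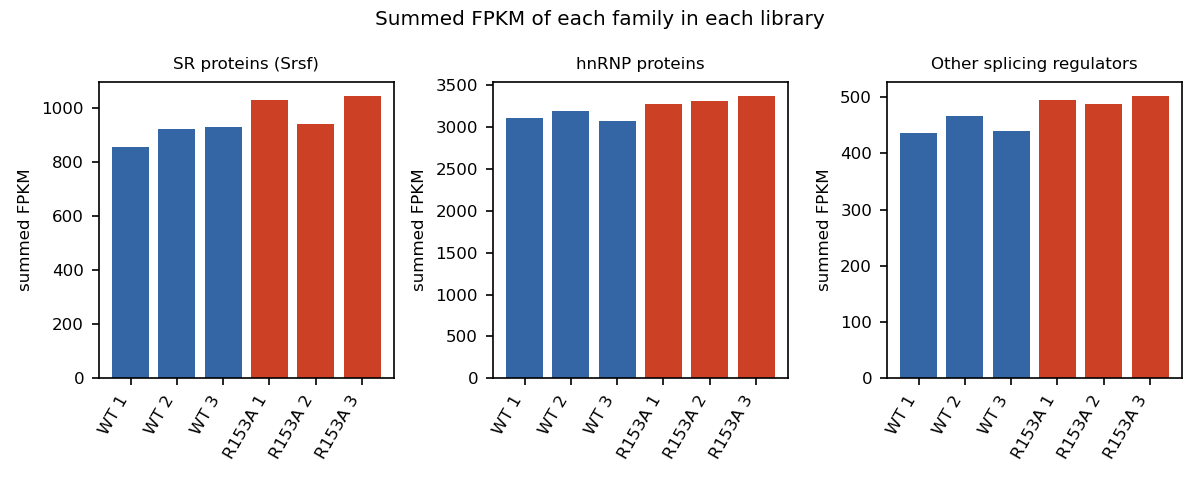
Summed FPKM (vertical axes, from 0) of the 11 SR genes, the 20 hnRNP genes and the 11 other regulators in each library (horizontal axes), WT in blue and R153A in red. In all 3 panels each R153A bar is higher than each WT bar, by the least for R153A library 2 among SR genes, 941 against 931 in WT library 3. The sums are of the deposited FPKM, without rescaling.

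The hnRNP genes split into a few that rose, a few that fell and a majority near zero. Of 20, 6 rose, 3 fell and 11 were not called, 45.0% called where 59.8% of all genes were. Their median change was 0.019, and it lay below zero under median-ratio scaling (-0.062), on rescaling to TPM (-0.0041) and after the GC and length correction (-0.084). The family held the most abundant members, from 10.7 FPKM for Hnrnpr to 519 FPKM for Hnrnpa1 in WT. Their summed FPKM was 3113, 3189 and 3077 in WT and 3278, 3308 and 3374 in R153A, a 1.06-fold difference of the means. As shares of each library's summed FPKM the means differed 1.04-fold.

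The A/B group showed both stability and change. Hnrnpa2b1, which binds RNA modified with N6-methyladenosine and takes part in microRNA processing, was at 245, 249.9 and 239.9 FPKM in WT, against 326, 331 and 332 FPKM in R153A. The 3 R153A libraries lay close together and far above WT, a change of 0.43 (SE 0.0435, limma adjusted p = 7.8e-06). Hnrnpa0, which stabilises AU-rich mRNAs, rose from 149, 151 and 155 FPKM to 193, 194 and 190.4 FPKM, a change of 0.34 (SE 0.0432, limma adjusted p = 4.4e-05). Hnrnpa1, a repressor of many exons and the most abundant member, was at 522, 528 and 507 FPKM in WT, against 505, 559 and 545 FPKM in R153A. Its groups overlapped, with a change of 0.047 (SE 0.0524, limma adjusted p = 0.46). Hnrnpa3 had means of 190.2 ± 4.12 FPKM (WT) and 188 ± 7.80 FPKM (R153A; SD, n = 3), with a change of -0.019. Hnrnpab, the second most abundant member, was at 342, 380.3 and 360.1 FPKM in WT, against 372, 361 and 375 FPKM in R153A, with overlapping groups. The ratio of Hnrnpa2b1 to Hnrnpa1 was 0.470, 0.473 and 0.473 in WT and 0.646, 0.592 and 0.609 in R153A. Hnrnpa1 and Hnrnpa2b1 have processed copies in the genome whose reads the counting may have shared, so their levels are uncertain to that extent.

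The hnRNP H and F group bind runs of guanines near splice sites, and its members moved in opposite directions. Hnrnph1 was at 122, 119 and 123 FPKM in WT, against 163, 152 and 169 FPKM in R153A, a change of 0.40 (SE 0.0508, limma adjusted p = 4.3e-05). Hnrnph2, on the X chromosome, was at 47.8, 50.96 and 49.1 FPKM in WT, against 43.2, 43.5 and 45.1 FPKM in R153A, a change of -0.16 (SE 0.0476, limma adjusted p = 0.013). Hnrnph3, a shorter relative, fell from 32.7, 31.6 and 35.2 FPKM to 28.2, 29.9 and 29.3 FPKM, a change of -0.18 (SE 0.0547, limma adjusted p = 0.015). None of these 3 genes had overlapping groups. The Hnrnph2 call was lost without R153A replicate 1 (limma adjusted p = 0.0595), and the Hnrnph3 call without R153A replicate 1 (0.0708) or WT replicate 3 (0.0567). Hnrnpf, the fourth member, had overlapping groups of 233 ± 11.01 FPKM in WT and 233 ± 12.1 in R153A (SD, n = 3). The ratio of Hnrnph1 to Hnrnph2 was 2.56, 2.34 and 2.51 in WT and 3.78, 3.48 and 3.75 in R153A. Because the coding sequences of Hnrnph1 and Hnrnph2 are close, reads may be split between them, and their separate values are uncertain.

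**Figure D4:**
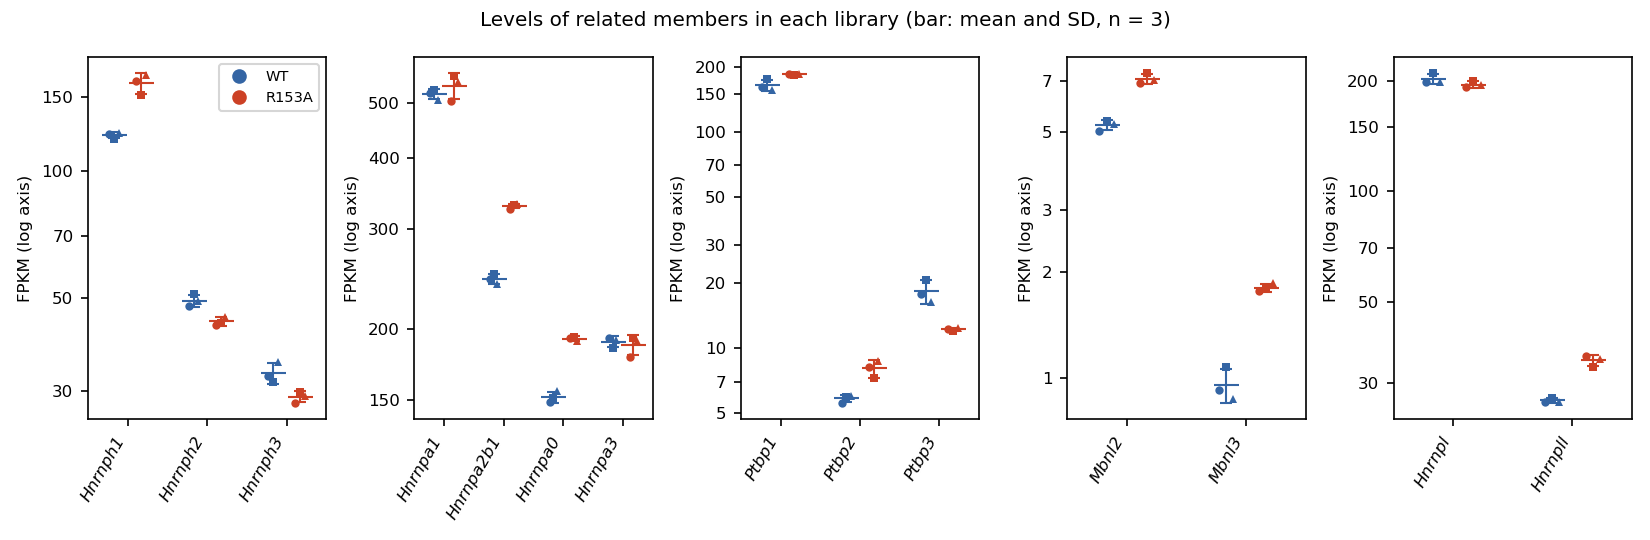
FPKM on logarithmic axes of related members in each library, WT in blue and R153A in red, with the mean and SD of 3 libraries as bars and caps. The values of Hnrnph1 rise where those of Hnrnph2 and Hnrnph3 fall, Hnrnpa2b1 and Hnrnpa0 rise beside overlapping Hnrnpa1 and Hnrnpa3, and Ptbp3 falls where Ptbp1 and Ptbp2 rise.

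The CD45 exon repressor Hnrnpll was at 26.7, 27.4 and 26.6 FPKM in WT, against 35.6, 33.2 and 34.9 FPKM in R153A. Its groups were well apart, with a change of 0.35 (SE 0.0490, limma adjusted p = 9.3e-05). Its relative Hnrnpl, which binds CA repeats, was at 199.5, 209.9 and 199 FPKM in WT, against 192, 200.03 and 195 FPKM in R153A. Those groups overlapped, with a change of -0.050 (SE 0.0453), and Hnrnpl was called lower under median-ratio scaling (limma adjusted p = 0.025) and the GC and length correction (0.0029). Hnrnpm, known for promoting mesenchymal isoforms such as that of Cd44, was at 131, 139 and 132 FPKM in WT, against 158, 147 and 158 FPKM in R153A, a change of 0.21 (SE 0.0491, limma adjusted p = 0.0037).

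Hnrnpu, a scaffold protein of the nuclear matrix that binds DNA and RNA, was the most abundant member that fell. It was at 256, 276 and 241 FPKM in WT, against 233, 224 and 233 FPKM in R153A. The lowest WT library lay just above the R153A group, and the change was -0.16 (SE 0.0553, limma adjusted p = 0.028). The call was lost without any 1 of 5 libraries, with limma adjusted p from 0.0563 (without R153A replicate 1) to 0.0998 (without R153A replicate 2), and was kept without WT replicate 3. It was also lost with no filter on low values (limma adjusted p = 0.0664) and in a fit that did not let variance follow the mean (0.0616). Its paralogs Hnrnpul1 and Hnrnpul2 had changes of 0.0088 and -0.021 with overlapping groups. Hnrnpd, or AUF1, which binds AU-rich elements, was at 47.5, 45.0 and 45.3 FPKM in WT, against 49.96, 52.1 and 48.5 FPKM in R153A. Its change of 0.12 (SE 0.0488, limma adjusted p = 0.046) was past the threshold in only 5 of 17 alternatives and was lost under every rescaling. It was also lost without each library but WT replicate 1, with limma adjusted p of 0.0558 (without R153A replicate 3) to 0.17 (without R153A replicate 2).

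The other hnRNP genes were not called. Hnrnpk, a poly(C)-binding protein, was at 249, 247 and 251 FPKM in WT, against 267, 259.7 and 278 FPKM in R153A. Its groups did not overlap, but its change of 0.11 (SE 0.0456, limma adjusted p = 0.064) passed only under quantile normalization (0.0085). Hnrnpc, which binds uridine tracts and guards against cryptic exons, had means of 152.9 ± 4.42 FPKM (WT) and 152 ± 4.72 FPKM (R153A; SD, n = 3). Hnrnpr and Hnrnpdl had changes of 0.029 and -0.034.

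**Figure D5:**
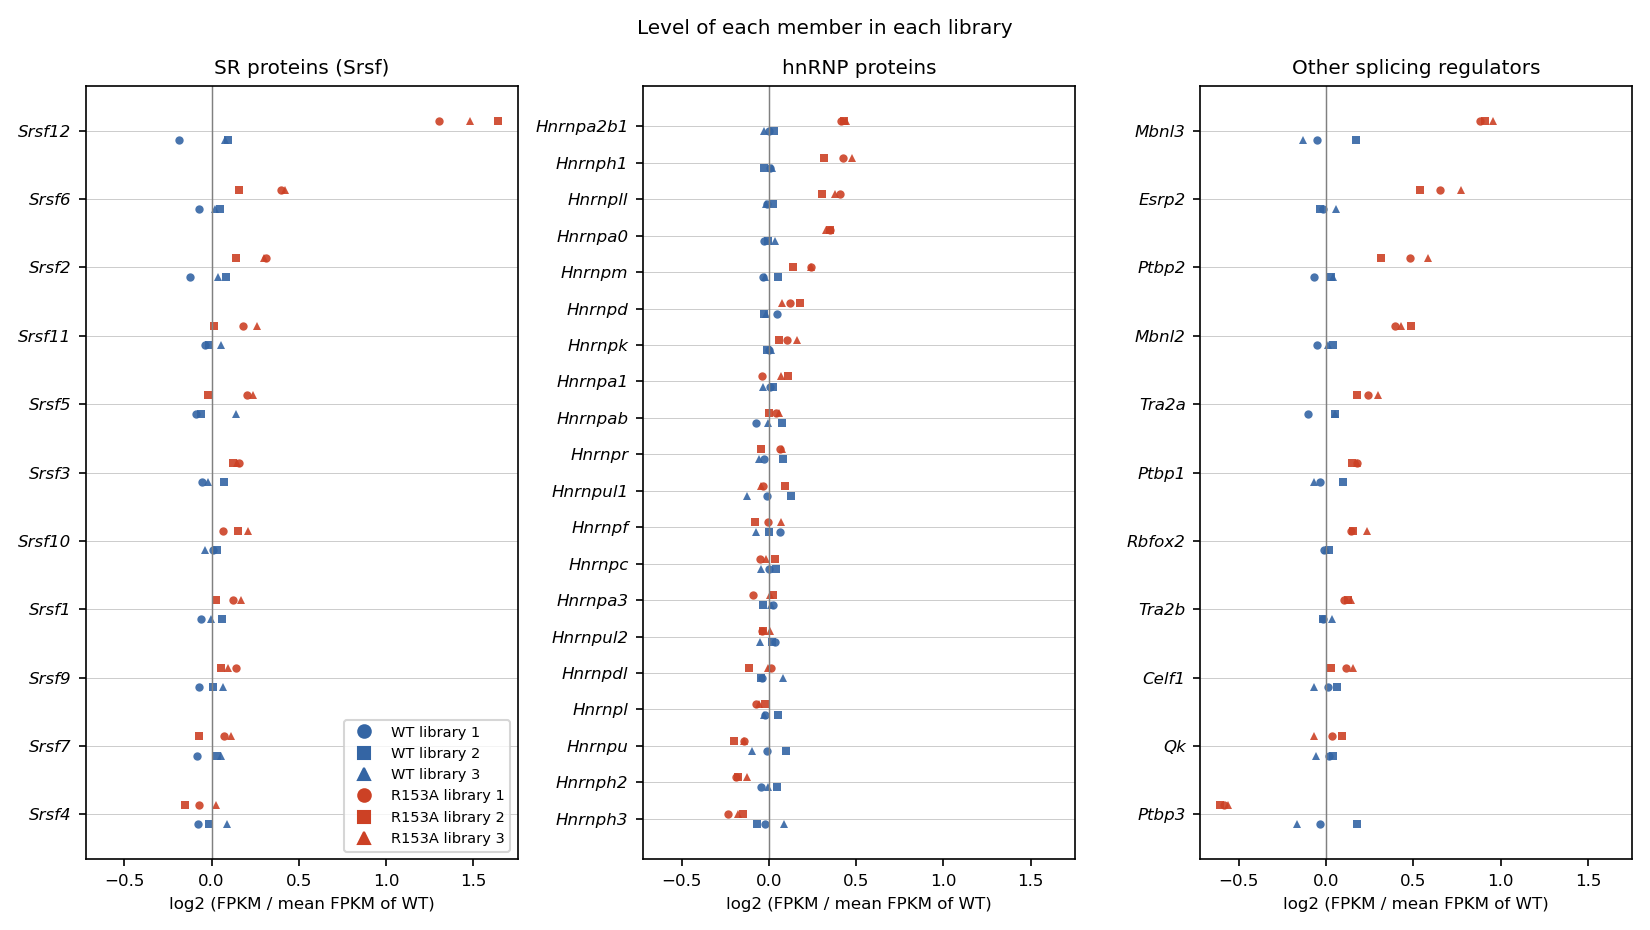
Level of each of the 42 members (rows) in each library as log2 of its FPKM over the WT mean (horizontal axes), WT in blue and R153A in red, with 1 marker shape per library number. Red points stand clear to the right for Srsf12, Mbnl3, Esrp2, Hnrnpa2b1 and Hnrnph1 and clear to the left for Ptbp3, and R153A library 2 (red squares) trails in most SR genes.

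The other regulators had a larger share of members called than the SR or hnRNP genes, which was not tested. Of the 11 tested, 8 rose, 1 fell and 2, Celf1 and Qk, were not called, 81.8% called where 59.8% of all genes were. Their median change was 0.17. It was 0.087 under median-ratio scaling, where 5 rose and 1 fell. After the GC and length correction it was 0.048, with 5 higher and 2 lower, the second being Celf1. These genes were also lower in level than the SR and hnRNP genes, with a median of 18.3 FPKM in WT, where the SR genes had 76.1 and the hnRNP genes 143.

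The polypyrimidine tract-binding paralogs parted ways. Ptbp3, once called ROD1 and related to PTBP1 in its RNA recognition, was at 17.9, 20.7 and 16.3 FPKM in WT, against 12.2, 12.02 and 12.4 FPKM in R153A. The R153A libraries lay close together and well below WT, a change of -0.54 (SE 0.0776, limma adjusted p = 1.2e-04), the largest fall of the members. Ptbp2, the paralog that replaces PTBP1 in neural precursors and which PTBP1 keeps low through an exon of its mRNA, was at 5.59, 5.97 and 6.02 FPKM in WT, against 8.16, 7.27 and 8.77 FPKM in R153A. It rose by 0.40 (SE 0.0756, limma adjusted p = 8.5e-04) with no overlap, while remaining far below Ptbp1.

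Ptbp1, the main repressor of neural exons outside the nervous system, was at 160.3, 176 and 156 FPKM in WT, against 185, 182 and 185 FPKM in R153A. The change was 0.17 (SE 0.0522, limma adjusted p = 0.017). It was not called without WT replicate 1 (limma adjusted p = 0.0551), R153A replicate 1 (0.0542) or R153A replicate 3 (0.0573), nor under median-ratio scaling (0.142) or the GC and length correction (0.51). The ratio of Ptbp3 to Ptbp1 was 0.112, 0.118 and 0.104 in WT and 0.0660, 0.0660 and 0.0669 in R153A. That of Ptbp2 to Ptbp1 was 0.0348, 0.0339 and 0.0385 in WT and 0.0441, 0.0399 and 0.0473 in R153A, again with no overlap.

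Muscleblind genes were expressed at low levels and those that could be tested rose. Mbnl2 was at 5.05, 5.39 and 5.28 FPKM in WT, against 6.88, 7.34 and 7.04 FPKM in R153A, a change of 0.37 (SE 0.0645, limma adjusted p = 4.4e-04). Mbnl3, an X-linked member, was at 0.924, 1.08 and 0.872 FPKM in WT, against 1.76, 1.80 and 1.86 FPKM in R153A. Its mean was 1.89-fold higher, a change of 0.52 (SE 0.0792, limma adjusted p = 1.8e-04) on the log2(FPKM + 1) scale. Only 1 WT library reached 1 FPKM, so Mbnl3 met the limit through R153A, and its call, like that of Srsf12, is no separate support. The ratio of Mbnl3 to Mbnl2 was 0.183, 0.200 and 0.165 in WT and 0.256, 0.245 and 0.264 in R153A. Because Mbnl3 met the limit through R153A, this ratio is no separate support either.

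Esrp2, a regulator of epithelial exons such as those of Fgfr2, was at 3.03, 3.00 and 3.195 FPKM in WT, against 4.83, 4.47 and 5.26 FPKM in R153A. All R153A libraries lay above all WT libraries, with a mean 1.58-fold higher and a change of 0.52 (SE 0.0756, limma adjusted p = 1.3e-04). Its paralog Esrp1, which the choice of members did not include, was more abundant and also rose, from 22.1, 22.2 and 22.6 FPKM to 27.2, 24.7 and 26.8 FPKM (change 0.22, SE 0.0534, limma adjusted p = 0.0039).

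Rbfox2, which binds UGCAUG and regulates splicing of its own and other regulators' transcripts in stem cells, was at 13.9, 14.2 and 14.01 FPKM in WT, against 15.5, 15.6 and 16.5 FPKM in R153A. Its change was 0.17 (SE 0.0535, limma adjusted p = 0.0198), but -0.051 after the GC and length correction (0.35), and it was not called without R153A replicate 3 (0.0955), under median-ratio scaling (0.116) or under quantile normalization (0.0838). The transformer-2 proteins, SR-like activators that bind GAA-rich enhancers, both rose. Tra2a went from 67.6, 75.4 and 75.2 FPKM to 86.0, 82.4 and 89.3 FPKM (change 0.24, SE 0.0560, limma adjusted p = 0.0036). Tra2b was at 91.01, 90.9 and 94.1 FPKM in WT, against 98.8, 100.3 and 102 FPKM in R153A (change 0.12, SE 0.0432, limma adjusted p = 0.029).

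The Tra2b call was lost under median-ratio scaling (limma adjusted p = 0.42), on rescaling to TPM (0.0525) and after the GC and length correction (0.28). It was lost in a fit that did not let variance follow the mean (limma adjusted p = 0.075). It was also lost without each library but WT replicates 2 and 3, with limma adjusted p from 0.0657 (without R153A replicate 1) to 0.112 (without R153A replicate 3). Celf1, which binds GU-rich RNA and opposes MBNL on some exons, had overlapping groups of 40.4 ± 1.85 FPKM in WT and 43.2 ± 1.94 in R153A (SD, n = 3). The STAR protein gene Qk, known for circular RNA formation and for mesenchymal splicing, stood at 30.6 ± 1.09 and 31.01 ± 1.69 FPKM (SD, n = 3), a change of 0.018.

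Genes that act on or beside the SR proteins were compared from lists drawn up from the known machinery. Of 10 kinases, phosphatase and import genes of SR proteins tested, 4 rose and none fell, 40% called where 59.8% of all genes were. Clk4, a kinase that phosphorylates RS domains in the nucleus, rose most, from 10.7, 11.7 and 12.3 FPKM to 15.8, 13.6 and 15.2 FPKM (change 0.34, SE 0.0721, limma adjusted p = 0.0019). Its relatives Clk2 and Clk3 rose by 0.29 and 0.25, and Clk1 had overlapping groups and a change of 0.18 that was not called (limma adjusted p = 0.059). R153A library 2 was the lowest of its group in all 4 Clk genes, picked after their values were seen, and in 6 of the 10 genes of the list, where it was lowest in 50.7% of all genes tested. Of 26 SR-related proteins tested, 7 rose and 2 fell, 34.6% called where 59.8% of all genes were. Son, a scaffold of nuclear speckles, rose from 28.5 ± 3.94 to 37.9 ± 2.40 FPKM, and Luc7l2, a U1-associated factor, fell from 34.9 ± 3.73 to 29.5 ± 0.397 FPKM (SD, n = 3), a call lost with no filter on low values. The calls of the kinase list read 2 higher and 3 lower after the GC and length correction, and those of the SR-related list 5 higher and 7 lower.

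Of 19 hnRNP relatives under other symbols, 8 rose and 3 fell (6 and 6 after the GC and length correction), 57.9% called where 59.8% of all genes were. The poly(C)-binding gene Pcbp4 rose from 27.6, 31.6 and 32.9 FPKM to 59.01, 58.99 and 62.04 FPKM, a change of 0.95 (SE 0.0644, limma adjusted p = 3.1e-07). On the log2(FPKM + 1) scale that exceeded the changes of all 42 members. In mean FPKM, Pcbp4 rose 1.96-fold, less than the 2.79-fold of Srsf12. Taf15, which encodes an RNA-binding protein, fell from 84.9 ± 2.21 to 63.9 ± 3.45 FPKM. Of 23 other splicing regulators tested, 11 rose and 2 fell, 56.5% called where 59.8% of all genes were. After the GC and length correction 9 were higher and 4 lower. Among those that rose, Celf2 was at 0.652, 0.493 and 0.554 FPKM in WT. It met the limit only through R153A, so its call is no separate support. Tia1, which binds uridine-rich tracts after 5′ splice sites, rose from 6.73 ± 0.514 to 11.4 ± 1.07 FPKM, and Rbm47, an epithelial RNA-binding protein, fell from 7.34 ± 0.290 to 3.91 ± 0.313 FPKM (SD, n = 3).

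In the spliceosome itself the calls were mixed. Across all genes tested, 37.5% rose and 22.3% fell. Of 15 genes listed for U1 and the Sm ring, 8 rose and 2 fell, counting Tia1 for its known part in U1 recruitment, so that it stands in both lists. The split was 5 higher and 4 lower under median-ratio scaling, and 6 and 4 after the GC and length correction. Snrpn, an imprinted Sm protein gene whose transcript also encodes SNURF, rose from 92.05, 103 and 101 FPKM to 198, 186 and 199 FPKM, a change of 0.98 (SE 0.0539, limma adjusted p = 6.2e-08), while Prpf40b fell from 13.02 ± 0.342 to 9.72 ± 0.604 FPKM. Of 22 genes of the U2 snRNP and 3′ splice site, 5 rose and 2 fell (4 and 7 after the GC and length correction). The minor-intron paralogs Zrsr1 and Zrsr2 led in opposite directions, Zrsr1 from 3.45 ± 0.109 to 4.69 ± 0.297 FPKM and Zrsr2 from 28.4 ± 1.39 to 22.06 ± 1.72 FPKM (SD, n = 3). They are near copies, so their separate values are uncertain. Of 25 tri-snRNP genes 9 rose and 3 fell, but 4 rose and 8 fell under median-ratio scaling. Lsm8 rose by 0.41 and Lsm2, another ring subunit on U6, fell by 0.32 on the log2 scale.

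Of 23 genes of the PRP19 complex and the catalytic steps, 5 rose and 8 fell (3 and 11 under median-ratio scaling, 3 and 14 after the GC and length correction). Cdc5l, a core subunit of the PRP19 complex, was at 74.3, 83.7 and 65.8 FPKM in WT, against 35.5, 34.9 and 35.97 FPKM in R153A. The groups were far apart, with a change of -1.04 (SE 0.0745, limma adjusted p = 4.6e-07). On the log2(FPKM + 1) scale it was larger in size than that of any of the 42 members. In mean FPKM, Cdc5l fell 2.10-fold, where Srsf12 rose 2.79-fold. The helicase gene Dhx38 rose by 0.37. Of 17 exon junction and nonsense-mediated decay genes, 3 rose and 4 fell, and 1 rose and 10 fell after the GC and length correction. Magohb fell by 0.37 on the log2 scale and Dhx34 rose by 0.39, a call lost under that correction, while the central helicase gene Upf1 was at 36.5 ± 2.04 FPKM in WT and 34.1 ± 0.738 in R153A (SD, n = 3), a difference that was not called (limma adjusted p = 0.15). These 9 lists had between 31.8% and 66.7% of their tested members called, where 59.8% of all genes were.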

How the data were processed

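The 6 libraries of polyadenylated RNA, 3 WT and 3 R153A, were grouped by their titles. The authors deposited 1 table of FPKM values per gene symbol and library. The submitters' processing notes list mm9 as the build and name, without saying what each did, HTSeq 0.11.2, edgeR 3.26.8, SAMtools 1.9 and Bowtie2 2.3.4.3. Which of them gave FPKM, the annotation and the use of strand were not given in these sources. Low values showed no common step that 1 read could be worth, so no counts were recovered, depth is unknown and no counting interval is given.

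Genes with 1 FPKM or more in at least 3 of 6 libraries (11817) were tested as log2(FPKM + 1) in a two-sided limma fit (version 3.58.1, R 4.3.3) that allowed variance to follow the mean, with Benjamini-Hochberg adjustment over all of them at 0.05. The fit was tested on simulated data. No test was run over the members or any list, which are described by counts and medians. The members, the lists and the rule for named genes were chosen with earlier results of these data known. The rule gave library values to the 4 largest rises and falls, all called tissue-specific regulators and the 3 most abundant SR and hnRNP genes, and named the largest called rise and fall of each list. Further members, Esrp1, Clk1, Clk2, Clk3, Upf1 and the paralog ratios were added after their values were seen. Alternatives were pseudocounts of 0.1 and 0.5, no filter, a filter of 5 FPKM, median-ratio scaling, TPM, quantile normalization, a block for replicate number, robust moderation, no trend, leaving out each library, and, added later, a loess correction (span 0.5) on GC content and length of GENCODE M21 transcripts, matched by symbol for 99.5% of genes tested and all 42 members. Promoters came from RefSeq (GRCm38.p6). Figures used matplotlib 3.10.9 in Python 3.11.15.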

Additional observations from a re-analysis of the deposited data

How the results depend on the processing

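Of the 23 called members, 14 were called in the same direction in every alternative that tested them, and of the 19 not called, 11 were called in none. The 14 include Srsf12 and Mbnl3, which met the limit through R153A, so that their constancy is no separate support. Pseudocounts of 0.1 and 0.5 changed no count of calls among the members. The filter of 5 FPKM tested fewer genes, with 2901 called higher, and left out Srsf12, Mbnl3 and Esrp2. Among SR proteins, calls fell from 5 to 3 on rescaling to TPM and without a trend, and the higher calls to 3 under median-ratio scaling and the GC and length correction, each with 1 lower. For the other regulators, both of these gave 5 higher, and the correction gave 2 lower. The GC and length correction gave 4326 lower genes in all, 9 lower members and 6 lower hnRNP genes. It turned the sign of 9 members. Of these, Celf1 (-0.10), Hnrnpd (-0.0053), Hnrnpr (-0.13) and Rbfox2 (-0.051) were called before or after it, and Hnrnpa1 (-0.026), Hnrnpab (-0.058), Hnrnpul1 (-0.14), Qk (-0.14) and Srsf7 (-0.022) in neither. The cause of these shifts was not tested. Leaving out 1 library gave 1 to 3 lower members, 3 to 6 SR genes called, all of them higher, 5 to 8 hnRNP genes called with 0 to 2 lower, and 5 to 8 other regulators higher. The lowest counts of lower members and of hnRNP genes came without R153A replicate 1, and those of SR genes without WT replicate 1 or R153A replicate 3. The replicate block called 6876 of 11817 genes and 23 members, with 6 SR genes in place of 5. Same-numbered libraries had correlations of their deviations from the group means of -0.049, -0.0095 and 0.060, and not every library correlated best with its own number, so the numbers were not taken as pairs. Depth is unknown, so low genes such as Srsf12 and Mbnl3 carry an error that 3 libraries show only in part.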

Other observations

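The order of the libraries within a group was counted for families of splicing genes. R153A library 2 was the lowest of its group in 9 of 11 SR genes, 19 of 26 SR-related genes and 15 of 25 tri-snRNP genes. It was lowest in 13 of 22 U2 genes, 9 of 20 hnRNP genes and 6 of 11 other regulators, against 50.7% of all genes tested. R153A library 3 was the lowest in none of the 11 SR genes, none of the 26 SR-related genes and 1 of the 25 tri-snRNP genes. It was lowest in 6 of the 22 U2 genes, 3 of the 20 hnRNP genes and 1 of the 11 other regulators, against 19.1% of all genes. In WT, library 1 was lowest in 10 of 11 SR genes and 15 of 26 SR-related genes, but in 5 of 25 tri-snRNP genes. It was lowest in 10 of 22 U2 genes, 4 of 20 hnRNP genes and 4 of 11 other regulators, against 50.3% of all genes. These counts are descriptions of 6 libraries, and their source was not tested.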
